A study of Mus musculus with 12 samples.

Results

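The fatty acid hydroxylating cytochrome P450 enzymes examined here were Cyp4a14, Cyp4a10, Cyp4f14 and Cyp4v3 of the Cyp4 family together with Cyp2u1. Members were chosen by gene name, as every probe set of the deposited table that listed exactly 1 gene symbol and whose symbol was one of the 5 names, and 5 of the 8554 probe sets with 1 symbol qualified. They covered 4 of the 5 genes, among 5856 genes measured in this way. Cyp4v3 had 2 probe sets and Cyp4a14, Cyp4f14 and Cyp2u1 had 1 each. The probe set for Cyp4a10 also lists Cyp4a31, so that its signal cannot be assigned to either gene, and it is described as a shared probe set without a test.

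Liver RNA came from male C57BL/6 mice of 8 weeks that had received no treatment, with 3 mice and 3 Affymetrix mouse genome arrays for each of 4 genotypes. Keap1-HKO (hepatocyte knockout) mice were bred from Keap1-KD mice and mice that express Cre recombinase from the albumin promoter, so that Keap1 is deleted in hepatocytes while other liver cells keep the knockdown allele. Keap1-KD (knockdown) mice have less Keap1 in the whole body, Nrf2-null mice lack Nrf2 in the whole body, and wild-type mice carry neither change. Keap1-HKO mice thus differ from wild-type mice both by the Keap1 allele of the knockdown line and by Cre, and these cannot be told apart. The mRNA measured is that of whole liver, in which fewer cells of a type and less RNA per cell cannot be told apart.

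Nrf2 is a transcription factor that turns on detoxifying and antioxidant genes, and Keap1 holds it back by directing its degradation. Cytochrome P450 enzymes of the Cyp4 family add a hydroxyl group at or near the methyl end of fatty acids (omega hydroxylation), the first step towards dicarboxylic acids, which are then shortened by peroxisomal beta oxidation. In mouse liver the Cyp4a genes are among the classical targets of PPARα, the nuclear receptor that fatty acids and fibrate drugs activate, and Cyp4f enzymes also inactivate leukotrienes and other eicosanoids.

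The values are log2 gcRMA intensities, and a probe set was kept in the table when its mean exceeded an intensity of 100, which is 6.64 on the log2 scale, in at least 1 genotype. Intensities under that level are mainly background. Cyp4f14 and both probe sets of Cyp4v3 passed in all 4 genotypes. Cyp4a14 passed through Nrf2-null and Keap1-KD alone and Cyp2u1 failed in Keap1-HKO alone, so that Cyp4a14 had to differ between genotypes to be in the table at all. Cyp2u1 was the member nearest to the threshold, with a highest genotype mean of 7.85, and probe sets outside it were not analysed here.

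Nfe2l2, the gene of Nrf2, averaged 2.35 in Nrf2-null livers against 8.90 in wild-type livers, and Keap1 averaged 3.36 in Keap1-HKO and 5.70 in Keap1-KD livers against 7.86 in wild-type livers, as the labels say. Array medians ran between 8.22 and 8.37. In 2 genotypes replicate 1 lay far from the rest, with a mean absolute deviation from the genotype median of 0.84 on the log2 scale for Keap1-HKO and 0.52 for Nrf2-null, against at most 0.18 on the other arrays. The 9 measured hepatocyte markers of 12 listed had medians from 15.05 to 15.17 on Keap1-HKO, 15.42 to 15.53 on Keap1-KD, 15.56 to 15.76 on Nrf2-null and 15.49 to 15.59 on wild-type arrays, so that all Keap1-HKO arrays lay below all others. Of the pancreas list 11 of 17 genes were measured, and their median was 14.3 and 11.2 on Keap1-HKO replicates 2 and 3 and at most 2.38 on the other arrays. Of the skeletal muscle list 12 of 18 were measured, and their median was 10.8 and 9.47 on the same Keap1-HKO arrays and 10.4 on wild-type replicate 2, against at most 2.89 on the rest. The part of these transcripts in the results on the hydroxylases was not tested, and values without those 3 arrays are given where a call changed.

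RefSeq promoter sequences (GRCm38.p6) were on hand for Cyp4v3 and Cyp4f14, 2 of the 5 genes. They were searched on both strands for the core of the antioxidant response element through which Nrf2 binds (TGACNNNGC), the nuclear receptor hexamer AGGTCA, its direct repeat with 1 base between the copies, to which PPARα binds with its partner, and the E-box CACGTG. In windows of 300 bases around all 32851 annotated starts, 12.4% held the element core, 16.3% the hexamer, 0.0396% the direct repeat and 7.15% the E-box. The window of Cyp4v3 is shown because that gene changed between genotypes. It held 1 E-box and no match to the other motifs, and the 250 bases before its start, with the E-box in capitals, read as follows.
Cyp4v3, chr8:45333164-45333413, minus strand: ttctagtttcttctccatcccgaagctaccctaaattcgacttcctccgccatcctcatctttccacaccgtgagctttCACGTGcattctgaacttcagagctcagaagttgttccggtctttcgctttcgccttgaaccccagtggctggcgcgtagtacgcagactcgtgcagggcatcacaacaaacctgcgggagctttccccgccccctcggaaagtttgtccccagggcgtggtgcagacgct
Cyp4f14 has 4 annotated starts, and 1 of their overlapping windows held a match to the element core. Its 30 surrounding bases are shown, with the match in capitals, because it is the only match to the Nrf2 motif in these windows.
Cyp4f14, chr17:32917195-32917224, minus strand: gaaggccagcTGACCAAGCaagaatgccac
The other windows of Cyp4f14 held none of the motifs. A match describes letters and not binding, and no match says only that the letters are not in these windows.

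Cyp4a14 mRNA differed most between genotypes among the hydroxylases. The gene encodes a lauric acid hydroxylase of rodent liver and lies next to Cyp4a10 in a cluster of Cyp4a genes. Its log2 intensity was 4.17, 3.16 and 5.94 in Keap1-HKO livers, 8.46, 8.73 and 9.45 in Keap1-KD livers, 12.71, 9.38 and 12.68 in Nrf2-null livers, and 6.25, 3.55 and 4.59 in wild-type livers. All 3 arrays of Keap1-KD and of Nrf2-null lay above every Keap1-HKO and wild-type array, and all Keap1-HKO and wild-type arrays lay under the intensity of 100. The lowest Nrf2-null array, replicate 2, overlapped the Keap1-KD range.

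The genotype means of Cyp4a14 were 4.43 ± 1.40 in Keap1-HKO, 8.88 ± 0.51 in Keap1-KD, 11.59 ± 1.91 in Nrf2-null and 4.80 ± 1.36 in wild-type livers (log2, SD, n = 3 each), highest in Nrf2-null and next in Keap1-KD. As un-logged intensity they were 29.4 ± 16.1 in Keap1-HKO, 492 ± 106 in Keap1-KD, 4636 ± 1985 in Nrf2-null and 37.3 ± 19.7 in wild-type livers (SEM, n = 3 each). Since wild-type intensity was under 100, folds against it are given as bounds against 100, which came to at least 46.4-fold higher in Nrf2-null livers and at least 4.92-fold higher in Keap1-KD livers. Neighbours at the low end, Keap1-HKO and wild-type, did not differ beyond their spread.

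**Figure D1:**
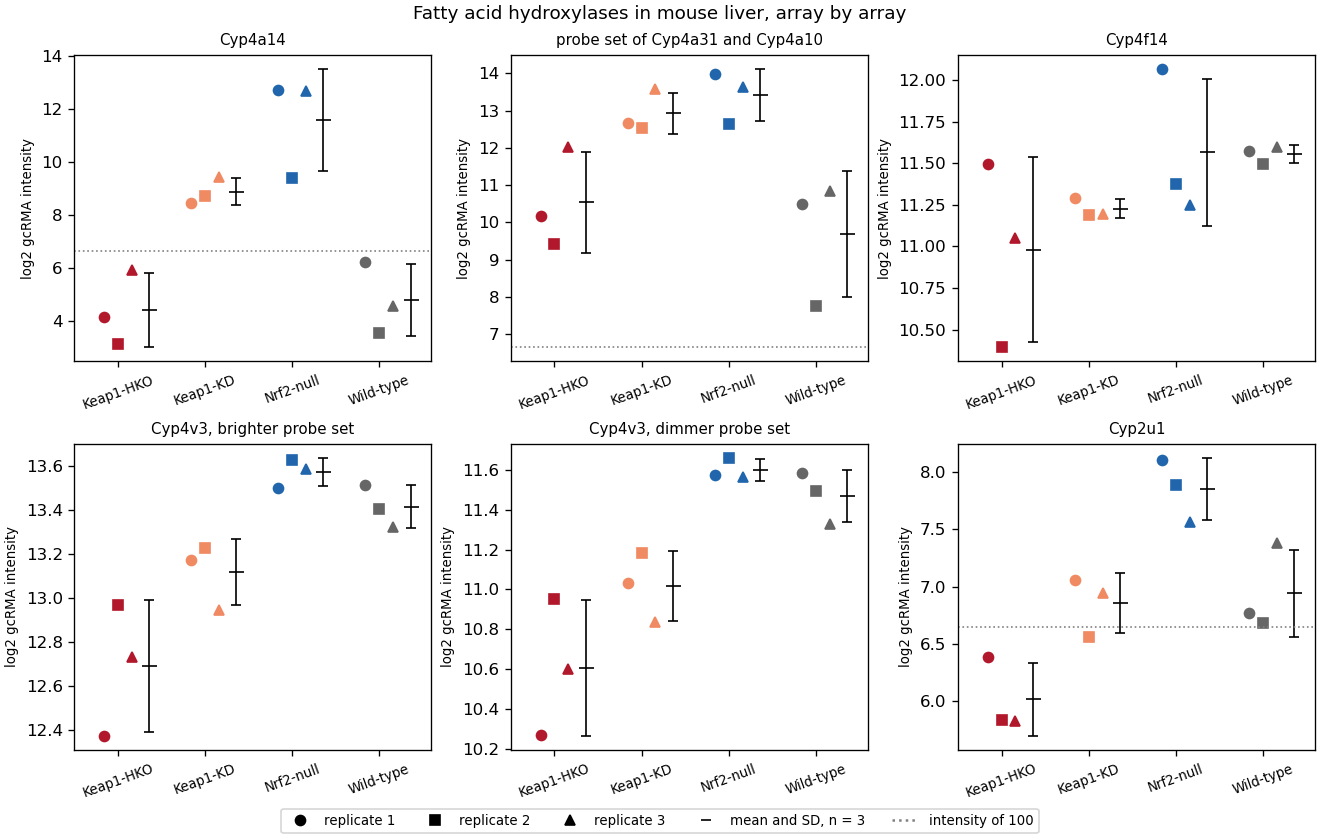
Log2 gcRMA intensity (vertical axis) of the 5 probe sets of the hydroxylases and of the probe set shared by Cyp4a31 and Cyp4a10, by genotype (horizontal axis). Each point is 1 array, with its shape giving the replicate number, and bars give mean and SD (n = 3). The dotted line marks an intensity of 100. Cyp4a14 lay above the line on all Keap1-KD and Nrf2-null arrays and under it on all Keap1-HKO and wild-type arrays, while Cyp4f14 and Cyp4v3 lay far above it in every genotype.

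The question of the Nrf2-null comparison is what the loss of Nrf2 does to these mRNAs. In Nrf2-null against wild-type livers, 1 of the 4 measured hydroxylase genes passed an adjusted p of 0.05, Cyp4a14, against 0.41% of the 5856 genes (24). The Cyp4a14 difference was 6.79 on the log2 scale (standard error 1.01, limma adjusted p = 0.0140) and it was higher in 3 of 3 Nrf2-null mice than in any wild-type mouse, as were 12.1% of all genes. High Cyp4a14 in Nrf2-null, low Cyp4v3 in Keap1-HKO and opposite changes of Cyp2u1 in both were known when these genes were grouped, so that their values are given as a description. The filter also kept Cyp4a14 only through Nrf2-null and Keap1-KD, the genotypes where it is high. The call was lost without any 1 of 4 arrays, with adjusted p-values of 0.0634 without Nrf2-null replicate 1, 0.0778 without Nrf2-null replicate 3, 0.0827 without wild-type replicate 2 and 0.0870 without wild-type replicate 3, and the difference stayed between 6.17 and 6.69. Wild-type replicate 2 was the wild-type array with muscle transcripts, and without the 3 arrays with pancreas or muscle transcripts the difference was 6.17 (adjusted p = 0.125). Without replicate 1 of both Nrf2-null and Keap1-HKO, the difference was 6.23 (adjusted p = 0.0371).

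In Keap1-KD against wild-type livers, 0 of the 4 genes passed by limma, against 0.0683% of all genes (4 of 5856), while 1 of the 4 had an unadjusted p under 0.05, as did 2.54% of all genes. That gene was Cyp4a14, with a difference of 4.08 (standard error 1.01, limma adjusted p = 0.766). Its 3 Keap1-KD arrays lay above its 3 wild-type arrays, as did those of 7.02% of all genes. Duncan's multiple range test called Cyp4a14 here and called 2.25% of all genes (132). Cyp4a14 was in the table only through Keap1-KD and Nrf2-null, where it is high, so that these values are a description. In Keap1-HKO against wild-type livers the Cyp4a14 difference was -0.37 with a 95% confidence interval from -2.62 to 1.87, an interval that holds changes of several fold in either direction, and both means lay under 100. Its sign turned to 0.20 under a second quantile normalization.

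The 2 genotypes with reduced Keap1 were compared directly. Cyp4a14 was lower in Keap1-HKO than in Keap1-KD livers by at least 4.92-fold, with a log2 difference of -4.46 (standard error 1.01, limma adjusted p = 0.0716), and all 3 Keap1-HKO arrays lay below all 3 Keap1-KD arrays, as did those of 9.48% of all genes. None of the 4 genes passed in this comparison, in which 1.43% of all genes did, and 3 of 4 had an unadjusted p under 0.05, against 12.8% of all genes. Low Cyp4v3 and Cyp2u1 in Keap1-HKO livers were known when the genes were grouped. The filter kept Cyp4a14 only through Keap1-KD and Nrf2-null, so that this count is a description. The adjusted p for Cyp4a14 was 0.0304 without Nrf2-null replicate 2 and 0.0307 without the 3 arrays with pancreas or muscle transcripts, which leaves 1 Keap1-HKO array that is assumed to vary like the other groups. With the replicate number as a block it was 0.0237, and arrays of the same number in these genotypes deviated together with correlations of 0.21, 0.17 and 0.11. All Keap1-KD arrays thus lay above the wild-type range of Cyp4a14, while the Keap1-HKO arrays overlapped it.

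Cyp4a14 in Keap1-HKO against Nrf2-null livers had a difference of -7.16 (standard error 1.01, limma adjusted p = 0.00160), at least 46.4-fold lower. Of the 4 genes 3 were lower in this comparison past the threshold, Cyp4a14, Cyp4v3 and Cyp2u1, against 4.63% of all genes lower and 9.14% in either direction. Their patterns were known when the genes were grouped, and Cyp4a14 was in the table only through the genotypes where it is high. The count is therefore a description. The comparisons share the Keap1-HKO, Nrf2-null or wild-type arrays with each other, so that their values are side by side and not independent.

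The probe set shared by Cyp4a31 and Cyp4a10, both lauric acid hydroxylases of the Cyp4a cluster, had log2 intensities of 10.16, 9.41 and 12.03 in Keap1-HKO livers, 12.68, 12.54 and 13.57 in Keap1-KD livers, 13.99, 12.64 and 13.63 in Nrf2-null livers, and 10.50, 7.75 and 10.83 in wild-type livers. Keap1-KD and Nrf2-null arrays lay above every Keap1-HKO and wild-type array, the same separation as for Cyp4a14. The means were 10.53 in Keap1-HKO, 12.93 in Keap1-KD, 13.42 in Nrf2-null and 9.69 in wild-type livers, and all were above the threshold, so that this probe set was in range where Cyp4a14 was not. Over the 12 arrays it correlated with Cyp4a14 with Pearson's r = 0.90, a description over arrays that share genotypes.

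Cyp4f14, a leukotriene and fatty acid hydroxylase, lay far above the threshold in every genotype and was called in no comparison by limma over all 12 arrays. Its log2 intensity was 11.50, 10.39 and 11.05 in Keap1-HKO livers, 11.29, 11.19 and 11.20 in Keap1-KD livers, 12.07, 11.38 and 11.25 in Nrf2-null livers, and 11.57, 11.50 and 11.60 in wild-type livers. Keap1-HKO replicate 2 was the lowest array and Nrf2-null replicate 1 the highest. The Keap1-KD and wild-type arrays hardly varied, with SDs of 0.06 and 0.05, and all Keap1-KD arrays lay below all wild-type arrays, as did those of 8.21% of all genes.

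The Cyp4f14 difference was -0.58 in Keap1-HKO against wild-type livers (standard error 0.27, 95% confidence interval -1.19 to 0.03, limma adjusted p = 0.290), with 1 Keap1-HKO array inside the wild-type range. It was -0.33 in Keap1-KD livers (adjusted p = 1) and 0.01 in Nrf2-null livers (95% confidence interval -0.60 to 0.62, adjusted p = 0.999). The spread of Nrf2-null, with an SD of 0.44, came mostly from replicate 1, and without it the difference was -0.24. The lowest array, Keap1-HKO replicate 2, also had the highest median of the pancreas and muscle lists, and without the 3 arrays with such transcripts the Keap1-HKO difference was -0.09 (adjusted p = 0.833), a single array against 2. Without Keap1-HKO replicate 1 it was -0.83 (adjusted p = 0.107), and Cyp4f14 passed without replicate 1 of both Keap1-HKO and Nrf2-null (-0.83, adjusted p = 0.0141) and with array quality weights (-1.11, adjusted p = 0.00391). Of all genes 671 and 318 then passed, in place of 231. The Keap1-HKO arrays left without replicate 1 both carried pancreas and muscle transcripts, and the estimation of the weights stopped before it converged.

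Cyp4v3 was lower in Keap1-HKO livers. The gene is the mouse counterpart of human CYP4V2, a fatty acid hydroxylase whose loss causes Bietti crystalline dystrophy of the retina. The brighter of its probe sets, which stands for the gene in the tests, gave 12.37, 12.97 and 12.73 in Keap1-HKO livers, 13.17, 13.23 and 12.95 in Keap1-KD livers, 13.50, 13.63 and 13.59 in Nrf2-null livers, and 13.52, 13.41 and 13.32 in wild-type livers. Every Keap1-HKO and every Keap1-KD array lay below every wild-type array, as for 14.9% of all genes in Keap1-HKO and 8.21% in Keap1-KD livers, and the highest Keap1-HKO array was just above the lowest Keap1-KD array.

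The Cyp4v3 means were 12.69 ± 0.30 in Keap1-HKO, 13.12 ± 0.15 in Keap1-KD, 13.57 ± 0.07 in Nrf2-null and 13.41 ± 0.10 in wild-type livers (log2, SD, n = 3 each), so that the level was lowest in Keap1-HKO, then Keap1-KD, and highest in Nrf2-null. In Keap1-HKO against wild-type livers the difference was -0.72 (standard error 0.16, limma adjusted p = 0.0332), which made Cyp4v3 the 1 of 4 genes that passed, against 3.94% of all genes and 1.84% of all genes that were lower. Low Cyp4v3 in Keap1-HKO livers was known when the genes were grouped, so that this count is a description. Mean intensity fell to 6708 ± 786 in Keap1-HKO livers, against 10933 ± 427 in wild-type livers (SEM, n = 3 each). In Keap1-HKO against Nrf2-null livers the difference was -0.88 (standard error 0.16, limma adjusted p = 0.00683). Differences between neighbours in this order of levels did not pass, at -0.42 in Keap1-HKO against Keap1-KD (adjusted p = 0.286), -0.30 in Keap1-KD against wild-type (adjusted p = 1) and 0.16 in Nrf2-null against wild-type livers (adjusted p = 0.823).

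The median of the hepatocyte markers was lower on the Keap1-HKO arrays as well. Over the 9 markers the median difference was -0.38 in Keap1-HKO against wild-type livers, with 6 below 0 and 3 above. Of the 9, 1 was lower past the threshold, against 1.84% of all genes. In Keap1-HKO against Nrf2-null livers the median difference was -0.32, with 7 below 0 and 2 above. There 3 of 9 were lower past the threshold, against 4.63% of all genes. The part of these markers in the Cyp4v3 result was not tested.

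The call for Cyp4v3 in Keap1-HKO against wild-type livers sat close to the threshold. It was lost without any 1 of 9 arrays, namely Nrf2-null replicates 2 and 3, all wild-type replicates, all Keap1-KD replicates and Keap1-HKO replicate 3, with adjusted p-values from 0.0513 to 0.126, and the difference was then between -0.77 and -0.67. It was also lost with array quality weights, where the difference was -0.43 (adjusted p = 0.181), and in a fit on the 2 genotypes alone (adjusted p = 0.224). It was kept without Keap1-HKO replicate 1, the array with the lowest value (-0.56, adjusted p = 0.0429). Without the 3 arrays with pancreas or muscle transcripts the difference was -1.05. Only Keap1-HKO replicate 1, which lay far from the rest, was then left in its genotype, so that this value cannot show whether the call holds.

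The dimmer probe set of Cyp4v3 gave the same order of genotypes at a lower signal. It read 10.27, 10.95 and 10.60 in Keap1-HKO livers, 11.03, 11.18 and 10.84 in Keap1-KD livers, 11.57, 11.66 and 11.56 in Nrf2-null livers, and 11.58, 11.50 and 11.33 in wild-type livers. Keap1-HKO arrays again lay below all wild-type arrays. When every probe set was tested, its difference in Keap1-HKO against wild-type livers was -0.86 (standard error 0.18, limma adjusted p = 0.0230). Both probe sets read the same 12 RNA samples and correlated with r = 0.99, so that they are not independent measurements of the gene.

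Cyp2u1 lay near the threshold in wild-type livers. Its product hydroxylates arachidonic acid and other long-chain fatty acids. Its log2 intensity was 6.38, 5.83 and 5.82 in Keap1-HKO livers, 7.06, 6.56 and 6.94 in Keap1-KD livers, 8.11, 7.89 and 7.56 in Nrf2-null livers, and 6.77, 6.68 and 7.38 in wild-type livers. All Keap1-HKO arrays lay below every other array and under the intensity of 100. All Nrf2-null arrays lay above every other array, and Keap1-KD overlapped wild-type. Keap1-HKO was lower without overlap for 14.9% of all genes against wild-type, 9.48% against Keap1-KD and 11.1% against Nrf2-null. Nrf2-null was higher than wild-type without overlap for 12.1% of all genes.

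The Cyp2u1 means were 6.01 ± 0.32 in Keap1-HKO, 6.85 ± 0.26 in Keap1-KD, 7.85 ± 0.27 in Nrf2-null and 6.94 ± 0.38 in wild-type livers (log2, SD, n = 3 each). Of the 5 comparisons only that of the lowest with the highest genotype passed the threshold, with -1.84 in Keap1-HKO against Nrf2-null livers (standard error 0.25, limma adjusted p = 0.00122), at least 2.34-fold lower. The difference from wild-type livers was -0.93 in Keap1-HKO livers (standard error 0.25, adjusted p = 0.0724) and 0.91 in Nrf2-null livers (standard error 0.25, adjusted p = 0.273). Since the Keap1-HKO mean lay under 100, its difference from wild-type livers is given as at least 1.26-fold lower, and with values raised to an intensity of 100 it was -0.30 (adjusted p = 0.444). In Keap1-KD livers it was -0.09 (95% confidence interval -0.63 to 0.46). Without Keap1-HKO replicate 1 the Keap1-HKO difference from wild-type livers was -1.11 (adjusted p = 0.0323).

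Duncan's multiple range test, which is run gene by gene, called more of the 4 genes and more of all genes. It called Cyp4v3 and Cyp2u1 in Keap1-HKO against wild-type livers, where it called 12% of all genes, and Cyp4a14 and Cyp2u1 in Nrf2-null against wild-type livers, where it called 5.4%. In Keap1-HKO against Keap1-KD livers it called Cyp4a14, Cyp4v3 and Cyp2u1 and 9.61% of all genes, and in Keap1-HKO against Nrf2-null livers the same 3 and 14.5%. Cyp4f14 was called in none of the 5 comparisons. These calls are descriptions, since the patterns were known and Cyp4a14 passed the filter only where it is high.

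**Figure D2:**
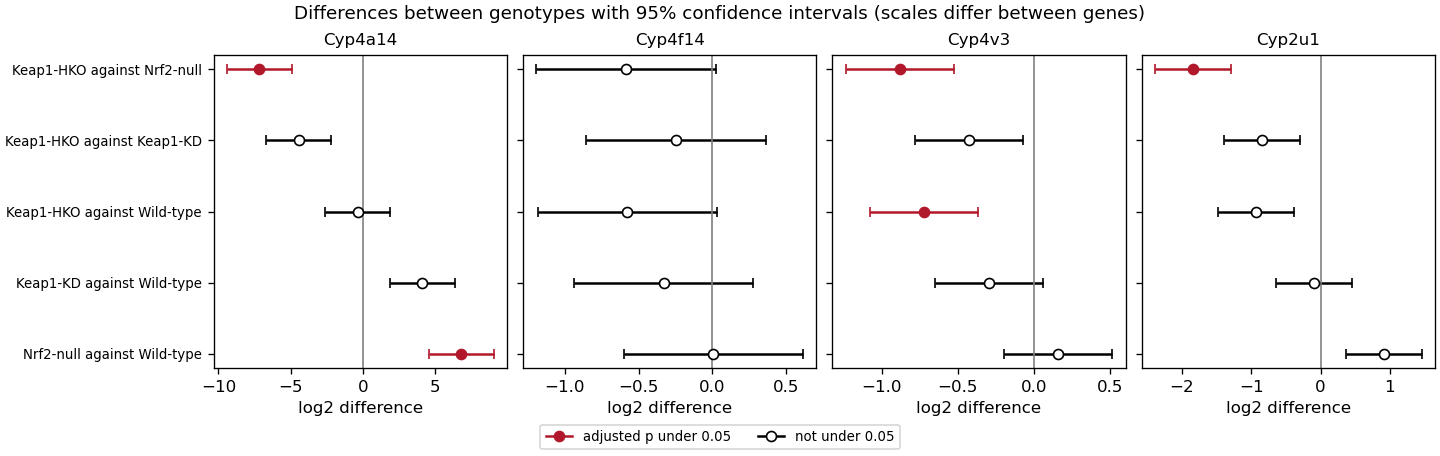
Log2 differences between genotypes (horizontal axis, first genotype minus second) with 95% confidence intervals for the 4 hydroxylase genes, 1 panel each and with different scales. Rows are the 5 comparisons, and filled red points mark an adjusted p under 0.05 (limma, over 5856 genes). Keap1-HKO against Nrf2-null passed for Cyp4a14, Cyp4v3 and Cyp2u1, and no comparison passed for Cyp4f14.

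Among themselves the hydroxylases moved together only in part. Over the 12 arrays Cyp2u1 correlated with Cyp4a14 (r = 0.71), Cyp4v3 (r = 0.71) and Cyp4f14 (r = 0.69), while Cyp4f14 and Cyp4v3 (r = 0.36) and Cyp4f14 and Cyp4a14 (r = 0.36) were weakly related. Arrays of a genotype share that genotype, and these correlations are descriptions over 12 arrays, in which Cyp4a14 values under an intensity of 100 entered as measured. The patterns most like that of Cyp4a14 were those of Ehhadh (r = 0.95), the bifunctional enzyme of peroxisomal beta oxidation, Bmp2 (r = 0.95), a secreted growth factor, and Hsd17b11 (r = 0.93), a hydroxysteroid dehydrogenase of lipid droplets. Those most like Cyp4f14 were Heatr1 (r = 0.96), which acts in ribosome production, Igfals (r = 0.94), a carrier of insulin-like growth factors in blood, and St6galnac6 (r = 0.94), a sialyltransferase. Cyp4v3 was most like Sc5d (r = 0.96), an enzyme of cholesterol synthesis, Cpsf2 (r = 0.96), a subunit of the polyadenylation machinery, and Prxl2a (r = 0.95), and Cyp2u1 was most like Abca3 (r = 0.96), a lipid transporter, Hpx (r = 0.95), the heme carrier of plasma, and Itih4 (r = 0.95), a plasma protein. These genes had the 3 highest correlations in each case.

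Ehhadh intensity on the log2 scale was 11.23, 11.01 and 11.58 in Keap1-HKO livers, 11.60, 11.85 and 11.86 in Keap1-KD livers, 12.15, 11.90 and 12.15 in Nrf2-null livers, and 11.49, 11.15 and 11.56 in wild-type livers. All 3 Keap1-KD and all 3 Nrf2-null arrays lay above every Keap1-HKO and wild-type array. Ehhadh was picked as the gene most like Cyp4a14 on these same arrays, so that sharing its separation is a description. Of all genes 7.02% had all Keap1-KD arrays and 12.1% all Nrf2-null arrays above all wild-type arrays. Of the arrays with muscle transcripts, Keap1-HKO replicate 2 and wild-type replicate 2 were the lowest for Ehhadh and Keap1-HKO replicate 3 was the highest among Keap1-HKO and wild-type arrays.

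**Figure D3:**
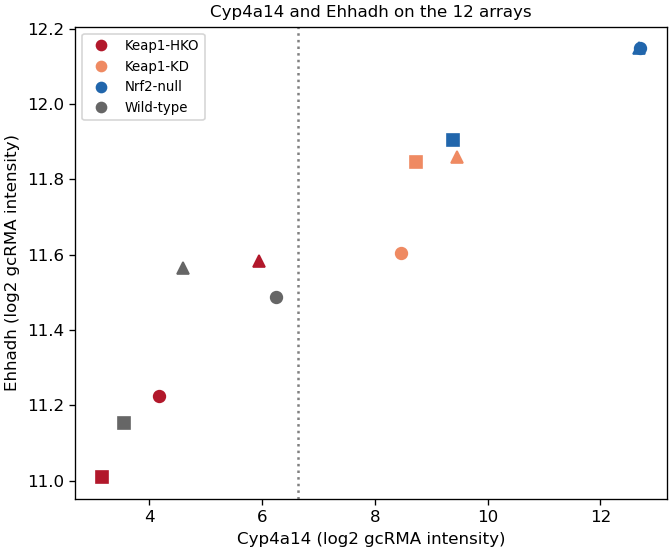
Cyp4a14 (horizontal axis) and Ehhadh (vertical axis), both as log2 gcRMA intensity, on the 12 arrays. Ehhadh was picked as the gene most like Cyp4a14 over these arrays. Colours give the genotype, shapes the replicate number, and the dotted line an intensity of 100 for Cyp4a14. Nrf2-null replicates 1 and 3 lie at the top right near 12.7 and 12.15, and all Keap1-HKO and wild-type arrays lie left of the dotted line, where the order of Cyp4a14 values has no meaning.

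The list of 44 PPARα target genes of mouse liver, which leaves out the hydroxylases themselves, held 36 measured genes. None passed against wild-type in any genotype by limma. At an unadjusted p under 0.05, 6 were higher and 2 lower in Keap1-HKO, 6 higher and 0 lower in Keap1-KD, and 16 higher and 1 lower in Nrf2-null. Of all genes 18.6%, 2.54% and 6.92% had such a p in either direction. Duncan's multiple range test called 4 in Keap1-HKO, 6 in Keap1-KD and 11 in Nrf2-null, against 12%, 2.25% and 5.4% of all genes. The median log2 difference of the 36 targets from wild-type livers was 0.10 in Keap1-HKO, 0.24 in Keap1-KD and 0.35 in Nrf2-null livers, where the medians of all genes were -0.01, -0.01 and 0.02. Of the 36 genes the difference was above 0 for 21 in Keap1-HKO, 34 in Keap1-KD and 30 in Nrf2-null livers. The 3 comparisons share the wild-type arrays. Against the wild-type mean of each gene, the median over the 36 genes was -0.24 on wild-type replicate 2, the wild-type array with muscle transcripts. It was 0.10 and 0.12 on the other wild-type arrays and 0.19, 0.33 and 0.24 on the Keap1-KD arrays. On the Nrf2-null arrays it was 0.50, 0.25 and 0.32, and on the Keap1-HKO arrays 0.39, 0.04 and 0.14. The part of the muscle transcripts in these differences was not tested.

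The PPARα targets with the lowest p in Nrf2-null livers were Eci2, an enoyl-CoA isomerase, at 0.76 (standard error 0.18, adjusted p = 0.180), Acot2, a mitochondrial acyl-CoA thioesterase, at least 1.10-fold higher (adjusted p = 0.212), Plin2, which coats lipid droplets, at 0.91 (standard error 0.23, adjusted p = 0.212), and Acot1, the cytosolic acyl-CoA thioesterase, at 1.61 (standard error 0.43, adjusted p = 0.265). Acot2 exceeded an intensity of 100 in Nrf2-null livers alone and had to differ to be in the table. All 4 had their 3 Nrf2-null arrays above their 3 wild-type arrays, as did 22 of the 36 genes and 12.1% of all genes. In Keap1-KD livers they were Acot1 at 1.41, Mgll, a monoacylglycerol lipase, at 0.58, Aldh3a2, the fatty aldehyde dehydrogenase, at 0.55, and Acot2, which was under an intensity of 100 in both genotypes, each with an adjusted p of 1, and 17 of the 36 genes had all Keap1-KD arrays above all wild-type arrays, against 7.02% of all genes. In Keap1-HKO livers they were Crat, carnitine acetyltransferase, at least 1.57-fold higher (adjusted p = 0.0547), Cd36, the fatty acid translocase, at 2.04 (adjusted p = 0.0912), Slc25a20, the carnitine carrier of mitochondria, at 0.64 (adjusted p = 0.136), and Fabp2, a fatty acid binding protein, at -1.21 (adjusted p = 0.138). Crat exceeded an intensity of 100 in Keap1-HKO and Nrf2-null livers alone and had to differ to be in the table. Cd36 read 8.24 on Keap1-HKO replicate 1 and 10.44 on replicates 2 and 3, which carried pancreas and muscle transcripts.

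**Figure D4:**
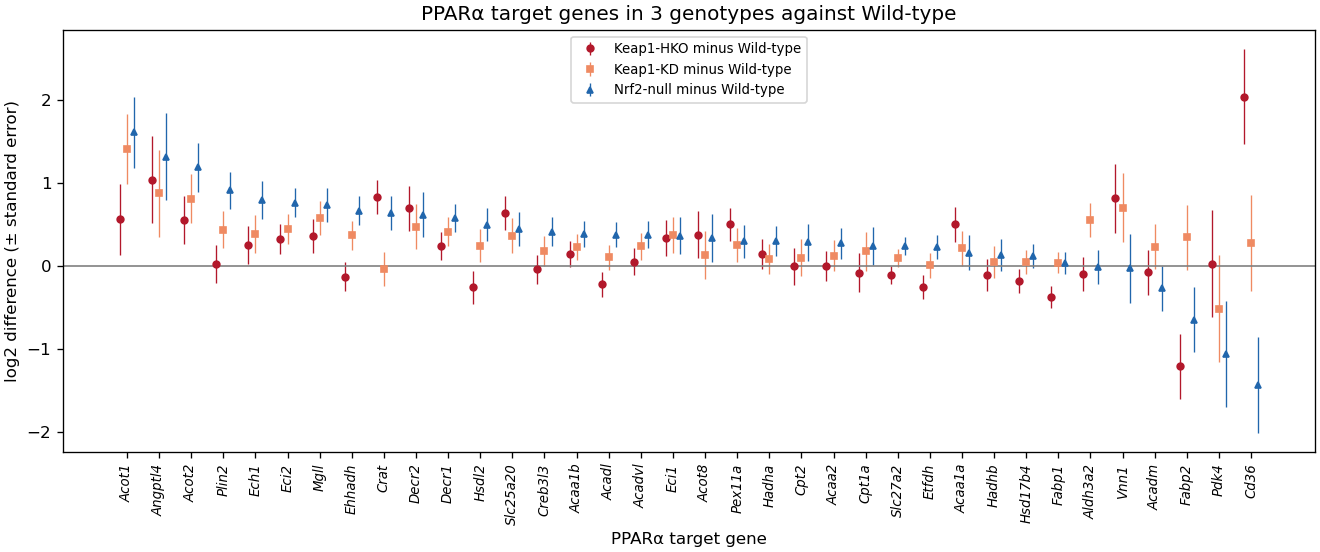
Log2 differences from wild-type livers (vertical axis, with standard errors) of the 36 measured PPARα target genes (horizontal axis, ordered by the Nrf2-null difference) in Keap1-HKO, Keap1-KD and Nrf2-null livers. Most Keap1-KD and Nrf2-null points lie above 0 (34 and 30 of 36), Keap1-HKO points lie on both sides (21 of 36 above), and Cd36 is at 2.04 in Keap1-HKO livers. Cd36 was highest on Keap1-HKO replicates 2 and 3, the arrays with pancreas and muscle transcripts.

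In Keap1-HKO against Nrf2-null livers 1 of the 36 targets was higher and 4 were lower past the threshold, where 9.14% of all genes passed in either direction and 4.63% were lower. Cd36 read 8.24, 10.44 and 10.44 in Keap1-HKO livers against 5.22, 6.91 and 6.54 in Nrf2-null livers, at least 10.3-fold higher (limma adjusted p = 0.00405). The values of 10.44 came from Keap1-HKO replicates 2 and 3, the arrays with pancreas and muscle transcripts. The part of those transcripts in the Cd36 difference was not tested. Ehhadh (-0.79), Acadl, a mitochondrial acyl-CoA dehydrogenase (-0.60), Plin2 (-0.89) and Hsdl2, a peroxisomal protein (-0.76), were lower, the same direction as Cyp4a14, Cyp4v3 and Cyp2u1. In Keap1-HKO against Keap1-KD livers none passed by limma, and 2 were higher and 5 lower at an unadjusted p under 0.05, against 12.8% of all genes in either direction, led by Crat (at least 1.57-fold higher), Fabp2 (-1.56), Fabp1 (-0.41) and Aldh3a2 (-0.65).

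Ppara itself averaged 9.82 in Keap1-HKO, 10.15 in Keap1-KD and 10.23 in Nrf2-null livers against 9.92 in wild-type livers, and passed in no comparison. Of the 8 measured genes among 9 for PPARα, its partner and coactivators, none passed against wild-type by limma (1 higher in Keap1-HKO, 0 in Keap1-KD, and 1 higher and 1 lower in Nrf2-null at an unadjusted p under 0.05, with the same counts by Duncan's test, against 18.6%, 2.54% and 6.92% of all genes at that p). Of all genes Duncan's test called 12%, 2.25% and 5.4%. Pparg, the adipose receptor of the same family, was higher in Keap1-HKO than in Nrf2-null livers by at least 1.16-fold (limma adjusted p = 0.000499), and Ncoa1, a coactivator, was lower by 0.41 on the log2 scale (adjusted p = 0.0471). Pparg exceeded an intensity of 100 in Keap1-HKO livers alone and had to differ to be in the table.

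The enzymes that act after omega hydroxylation, which are alcohol and aldehyde dehydrogenases, acyl-CoA synthetases and the peroxisomal beta oxidation enzymes, numbered 19 measured of 26 listed. Against wild-type none passed by limma in any genotype, with 4 in Nrf2-null, 1 in Keap1-KD and 5 in Keap1-HKO livers at an unadjusted p under 0.05 and 4, 1 and 3 by Duncan's test. Of all genes 6.92%, 2.54% and 18.6% had such a p and Duncan's test called 5.4%, 2.25% and 12%. Nearest were Acot12, an acetyl-CoA thioesterase, at 0.72 (adjusted p = 0.0530), and Crat, both in Keap1-HKO livers. In Keap1-HKO against Nrf2-null livers Acox2, a peroxisomal oxidase of branched chains, was higher by 0.79 (limma adjusted p = 0.0267), and Ehhadh and Acsl5, an acyl-CoA synthetase, were lower (Acsl5 at -0.70, adjusted p = 0.0449).

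Of 4 listed genes of cytochrome b5 and P450 electron transfer 3 were measured, namely Cyb5a, Cyb5b and Cyb5r3. Cyb5a, cytochrome b5, read 14.71, 14.67 and 14.90 in Keap1-HKO livers against 14.25, 14.39 and 14.35 in Nrf2-null livers. It was the 1 that passed, with a difference of 0.42 in that comparison (limma adjusted p = 0.0441), in which 9.14% of all genes passed. Against wild-type none passed by limma, with 2 in Nrf2-null, Cyb5a at -0.45 and Cyb5b at -0.71, and 1 in Keap1-HKO, Cyb5b at -0.43, at an unadjusted p under 0.05. Of all genes 6.92% in Nrf2-null and 18.6% in Keap1-HKO livers had such a p. Duncan's test called 2 in Nrf2-null, 0 in Keap1-KD and 0 in Keap1-HKO livers, against 5.4%, 2.25% and 12% of all genes.

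Other enzymes of arachidonic acid and leukotriene metabolism numbered 15 measured of 27. Against wild-type, 2 passed in Nrf2-null, against 0.41% of all genes, and both were lower, the epoxygenases Cyp2c50 (-0.86, limma adjusted p = 0.0114) and Cyp2c54 (-1.57, limma adjusted p = 0.0209). In Keap1-HKO livers 2 passed, against 3.94% of all genes, and both were higher, Ephx1, the microsomal epoxide hydrolase (1.72, limma adjusted p = 0.00481), and Ptgr1, which inactivates prostaglandins and leukotriene B4 (1.79, at least 2.21-fold, limma adjusted p = 0.00642). Ptgr1 exceeded an intensity of 100 in Keap1-HKO and Keap1-KD livers alone and had to differ to be in the table. None passed in Keap1-KD livers by limma, while 3 had an unadjusted p under 0.05, against 2.54% of all genes, and Duncan's test called 2, against 2.25%. In the direct comparison of Keap1-HKO with Nrf2-null livers all 4 were higher, opposite to Cyp4a14, Cyp4v3 and Cyp2u1. The Cyp2c genes are similar in sequence, and their probe sets could share signal.

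The rest of the Cyp4 family gave 4 measured genes of 16 listed, and none passed in any comparison by limma or by Duncan's test, while 2 were higher in Keap1-HKO than in wild-type livers at an unadjusted p under 0.05, against 18.6% of all genes in either direction. Cyp4a12a, the male-specific arachidonic acid hydroxylase of mouse, read 13.63, 13.87 and 13.07 in Keap1-HKO livers, 12.99, 12.68 and 13.13 in Keap1-KD livers, 12.99, 13.11 and 12.16 in Nrf2-null livers, and 12.89, 12.82 and 12.91 in wild-type livers. Keap1-HKO arrays lay above every wild-type array, with a difference of 0.65 (standard error 0.27, limma adjusted p = 0.234), while Cyp4a14 in the same cluster of genes did not lie above wild-type there. Cyp4f13, the neighbour of Cyp4f14, was at 9.10, 8.02 and 8.18 in Keap1-HKO livers against 7.93, 7.55 and 7.73 in wild-type livers, a difference of 0.69 (adjusted p = 0.257), where that of Cyp4f14 was -0.58. In Keap1-HKO livers 12.7% of all genes had all arrays above wild-type. Cyp4b1 and Cyp4f15 differed from wild-type by 0.31 at most in size in any genotype. Members of the Cyp4a and Cyp4f clusters are similar in sequence, and their probe sets could share signal.

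**Figure D5:**
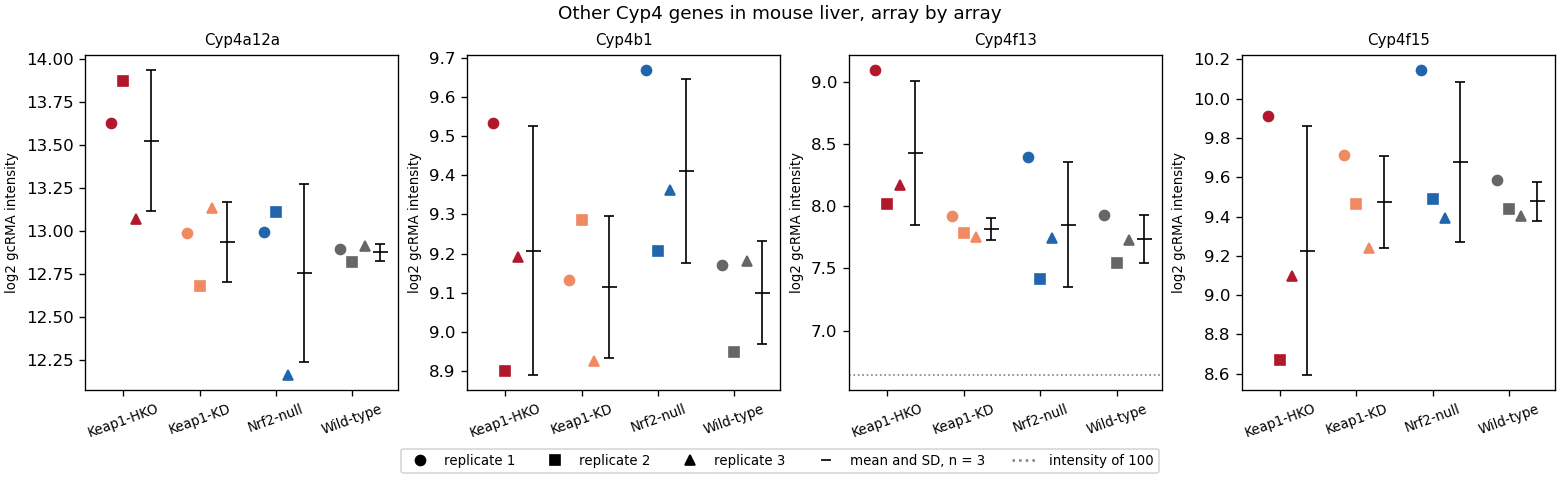
Log2 gcRMA intensity (vertical axis) of 4 other Cyp4 genes by genotype (horizontal axis), 1 point per array with its shape giving the replicate number, and mean and SD (n = 3). The dotted line, drawn where it is in range, marks an intensity of 100. Cyp4a12a and Cyp4f13 lie higher on Keap1-HKO arrays than on wild-type arrays, while Cyp4b1 and Cyp4f15 overlap.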

How the data were processed

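Liver mRNA was measured on 12 arrays. The deposited log2 values were made by the authors with gcRMA in R, which corrects background, quantile-normalizes and summarizes probe sets, and kept where a genotype mean exceeded an intensity of 100. Of 9622 probe sets, 8554 had 1 symbol and were used, and 371 with several and 697 with none were not. Per gene the probe set with the highest mean over all arrays was taken (5856 genes). The contrasts were fitted by lmFit and eBayes of limma 3.58.1 (R 4.3.3; 1 fit over 4 genotypes, 8 residual and 2.19 prior degrees of freedom), with Benjamini-Hochberg adjustment over all genes and calls under 0.05. The procedure was tested on simulated data. Confidence intervals cover 95%. The number of arrays limits the precision, and p-values measure the spread between the 3 mice of each genotype, pooled over the 4 genotypes. Alternatives were another filter, floor, normalization, centring, probe set rule, variance model, array weights, pairwise fits, a replicate block, Duncan's multiple range test and arrays left out.

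Besides the members, the text names up to 4 genes of each list with the lowest p and any that passed, the 3 genes most like each member, and Nfe2l2 and Keap1. Members and lists were chosen with earlier results of these data known. Promoters were searched with Python 3.11.15.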

Additional observations from a re-analysis of the deposited data

Results flagged for a closer look

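The probe set shared by Cyp4a31 and Cyp4a10 lay outside the comparisons of genes, because it cannot be assigned to 1 gene, and carried a signal above the wild-type level. Its log2 difference from wild-type livers was 3.73 in Nrf2-null livers and 3.23 in Keap1-KD livers, with all 3 arrays of each genotype above all 3 wild-type arrays.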

How the results depend on the processing

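Without a change of call under any alternative run, Cyp4a14 and Cyp2u1 stayed lower in Keap1-HKO than in Nrf2-null livers. Cyp4v3 did so in all but the fit on these 2 genotypes alone (adjusted p = 0.133). Of the 4 hydroxylase genes, the number that passed was 1 in Nrf2-null against wild-type, 0 in Keap1-KD against wild-type, 1 in Keap1-HKO against wild-type and 0 in Keap1-HKO against Keap1-KD livers. Array quality weights, whose estimation stopped before it converged, gave 2 in Nrf2-null and 3 in Keap1-KD livers against wild-type, with 1379 and 323 of all genes in place of 24 and 4. In Keap1-HKO against wild-type livers they gave 1 gene, Cyp4f14 in place of Cyp4v3. A fit on only the 2 genotypes compared gave 0 in Nrf2-null and 0 in Keap1-HKO livers against wild-type, with 13 and 49 of all genes in place of 24 and 231. Duncan's multiple range test, which is not adjusted over genes, gave 2 in Nrf2-null, 1 in Keap1-KD and 2 in Keap1-HKO livers against wild-type and 3 in Keap1-HKO against Keap1-KD livers, with 316, 132, 703 and 563 of all genes. Leaving out each array in turn gave 0 to 1 in Nrf2-null against wild-type, 0 to 2 in Keap1-HKO against wild-type and 0 to 1 in Keap1-HKO against Keap1-KD livers. Without replicate 1 of both Keap1-HKO and Nrf2-null, 3 passed in Keap1-HKO against wild-type and 1 in Keap1-HKO against Keap1-KD livers. Of all genes 671 and 336 then passed, in place of 231 and 84. Without the 3 arrays with pancreas or muscle transcripts, an alternative chosen after seeing the data, the Cyp4a14 call in Nrf2-null against wild-type livers was lost. Only Keap1-HKO replicate 1 was then left in its genotype, so that counts for Keap1-HKO are not given. The cause was not tested in each case.

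With the replicate number as a block, 1 gene passed in Keap1-HKO against Keap1-KD livers, Cyp4a14 (adjusted p = 0.0237), and no other count of hydroxylase genes changed. The labels do not say that a number pairs mice. Over 18 pairs of arrays with the same number in different genotypes, deviations from the genotype means correlated between -0.16 and 0.79 and exceeded 0.1 in 15, and 10 of 12 arrays correlated best with their own number, a hint from the data and not the design. Of all genes the block called 44 in Nrf2-null and 381 in Keap1-HKO livers against wild-type, in place of 24 and 231.

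Signs turned only for differences that had not passed. For Cyp4f14 in Nrf2-null against wild-type livers the difference was -0.0062 after a second quantile normalization, -0.30 with array quality weights (adjusted p = 0.0204), -0.24 without Nrf2-null replicate 1, alone or with Keap1-HKO replicate 1, and -0.022 without wild-type replicate 2, alone or with the other arrays with pancreas or muscle transcripts, and leaving out single arrays gave -0.24 to 0.17. For Cyp4f14 in Keap1-HKO against Keap1-KD livers it was 0.048 without Keap1-HKO replicate 2 and 0.27 without those 3 arrays, and single arrays gave -0.50 to 0.048. For Cyp4a14 in Keap1-HKO against wild-type livers it was 0 with values raised to an intensity of 100, 0.20 after a second quantile normalization, 0.35 without wild-type replicate 1 and 0.26 without Keap1-HKO replicate 2, and single arrays gave -1.13 to 0.35. For Cyp2u1 in Keap1-KD against wild-type livers it was 0.13 without wild-type replicate 3 and 0.059 without Keap1-KD replicate 2, and single arrays gave -0.22 to 0.13. Intensities under 100 limit Cyp4a14 and Cyp2u1, whose order there has no meaning.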
